A study of Rattus norvegicus and Heterocephalus glaber with 6 samples.

Results

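The genes examined here encode the proteins that form and dissolve blood clots, most of which the liver makes and secretes into plasma. They were chosen by name: a list of 39 symbols was matched to the rows of the deposited tables without regard to case, and 38 of them had a row among the 22549 rows of the rat tables. The listed name Kng2 matched no row. None of the 39 (0) matched a row among the 734 of the naked mole rat tables used here, so the values below are from rat and no comparison between the species was made for these genes. The study sequenced polyadenylated RNA of liver from rats and from naked mole rats, subterranean rodents that live in low oxygen, after 8 hours at 8% oxygen, with 3 libraries per species. The rats all shared that treatment, and no strain, sex or age is stated for them. No library from normal oxygen was analysed here, and the effect of low oxygen is therefore outside what follows. The labels call the 3 rat libraries replicates without saying that each came from its own animal, so the spread between them may in part be technical; they are called rat 1, rat 2 and rat 3 by their replicate numbers.

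Clotting runs through a chain of serine proteases that ends with thrombin cutting fibrinogen into fibrin. Tissue factor with factor VII starts it at a wound, the contact system can start it on foreign surfaces, and the antithrombin, protein C and tissue factor inhibitor pathways restrain it. Plasminogen, once activated, cuts the fibrin clot. Several factors need vitamin K for a carboxylation in the hepatocyte before they are secreted, while others, such as factor VIII, von Willebrand factor and thrombomodulin, come largely from endothelial cells. Fibrinogen and, in the rat, some kininogens belong to the acute-phase proteins, whose output by the liver changes with inflammation.

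The values are FPKM, fragments scaled by transcript length and by library size, so levels can be set side by side between genes. The FPKM of a rat library summed to 527133 to 557187. These units carry no read counts and the absolute depth is unknown, but the steps between values under 0.1 FPKM gave relative depths of 1.05 for rat 1 over rat 2, 1.07 for rat 3 over rat 2 and 0.983 for rat 1 over rat 3. Defining hepatocyte genes were high in the 3 rats, with Ttr at 9869, 12914 and 10322 FPKM and Cps1 at 1054, 1114 and 979.7. With 1 group of 3 libraries there is no test between groups, and each statement below is a description of these libraries. A gene was said to differ among the rats when its highest value was at least 2 times its lowest and its mean at least 1 FPKM; 6.01% of the 9994 rat rows at that level did. Scaling the libraries to the same median ratio moved rat 1 up and rat 2 down by a few percent, which reorders close values; where an order between rats is given for a gene below, it held with that scaling unless said otherwise. Erythroid markers summed to 391, 2333 and 2631 FPKM in rat 1, rat 2 and rat 3, so rat 1 stood apart for them.

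Coagulation genes were among the abundant transcripts of the rat liver. Of the 38, 34 had a mean of at least 1 FPKM, 27 of at least 10, 20 of at least 100 and 8 of at least 1000, so 52.6% reached 100 FPKM against 2.94% of all rat rows. Their means ran over 3.75 orders of magnitude among the 34. Of the 18 procoagulant genes 9 reached 100 FPKM, of the 9 anticoagulant genes 5, of the 7 fibrinolytic genes 4 and of the 4 genes of carboxylation and secretion 2. The median level was 106 FPKM for procoagulant genes, 104 for anticoagulant genes, 274 for fibrinolytic genes and 86.5 for carboxylation and secretion. The fibrinolytic value is that of Serpinf2, the plasmin inhibitor. Within that class the 3 inhibitors and regulators had a median of 291 FPKM. The other 4, plasminogen, its activators and the urokinase receptor, had a median of 1.42 FPKM, and 1 of these 4 reached 10. In rat 1, rat 2 and rat 3 the class medians were 103, 114.5 and 101 FPKM for procoagulant genes and 103, 102 and 106 for anticoagulant genes. They were 278, 232 and 280.1 for fibrinolytic genes and 77.9, 84.6 and 97.2 for carboxylation and secretion. The procoagulant and anticoagulant medians differed by less than the SD of the procoagulant median between libraries (7.35 FPKM). That closeness depended on the genes near 0: with genes under 1 FPKM left out the medians were 290.0 and 153 FPKM, and without Pros1, listed at 0, the anticoagulant median was 128 FPKM.

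**Figure D1:**
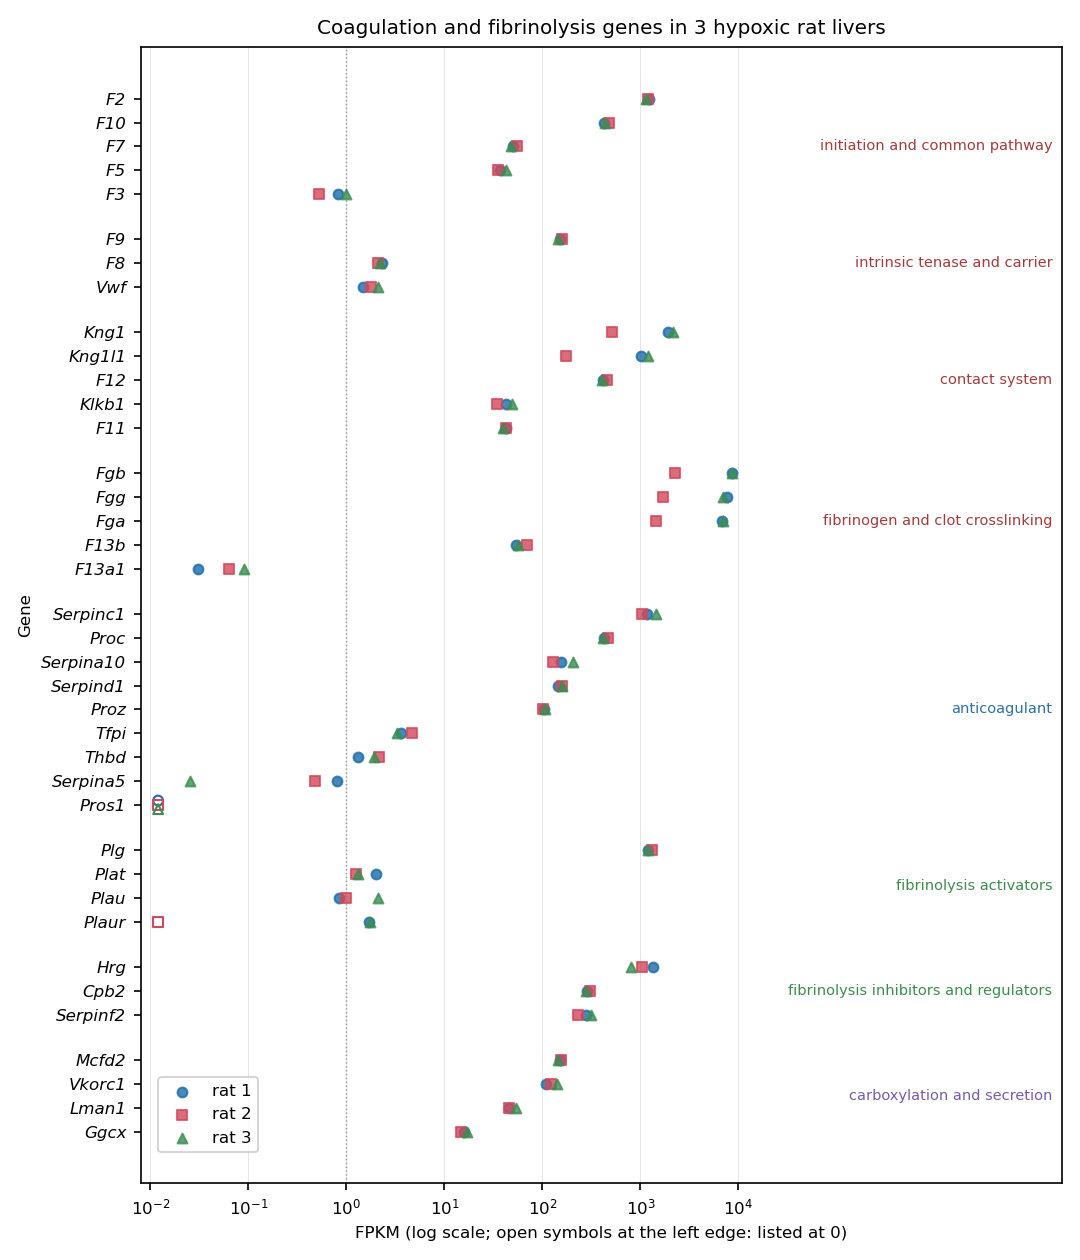
Level of each of the 38 genes (rows, grouped by role) in the 3 rat libraries; the x axis is FPKM on a log scale, each symbol is 1 library, the dotted line marks 1 FPKM, and open symbols at the left edge mark values listed at 0. Rat 2 stands apart for Fga, Fgb, Fgg, Kng1 and Kng1l1 while the 3 symbols of most other abundant genes nearly coincide.

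Among the 34 genes with a mean of at least 1 FPKM, 7 differed among the rats by this rule (20.6%, beside 6.01% of all rows): the fibrinogen chains Fga, Fgb and Fgg, the kininogens Kng1 and Kng1l1, the urokinase gene Plau and its receptor Plaur. In 6 of the 7 rat 2 was the lowest library, as it was in 32.1% of all rows that met the rule. The rule was thus met with rat 2 lowest in 17.6% of the 34 genes, beside 1.93% of all rows. Plaur is among the 6 because it is listed at 0 in rat 2, and a listed 0 can be a failed estimate. Over rows above 0 in every rat, chosen after seeing the data, 6 of 33 genes differed beside 5.95% of 9987 rows. In 5 of the 33 (15.2%) the rule was met with rat 2 lowest, beside 1.88% of those rows. Among genes with a mean of at least 100 FPKM, 5 of 20 differed, against 6.94% of the 663 rat rows at that level. The other 27 genes had ratios of the highest to the lowest rat of 1.04 to 1.67, and 15 of the 34 stayed under 1.2, where 39.9% of all rows lay. Without rat 2 the count fell from 7 to 1, and the gene that remained was Plau. That gene reached a mean of 1 FPKM only through rat 3, its highest library, and stood at 0.850 and 0.981 FPKM in rats 1 and 2. Without rat 1 the count was 7 and without rat 3 it was 6. In these settings the filter still used the mean of all 3 rats. On the mean of the rats kept, Plaur, counted in both, would be under 1 FPKM.

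**Figure D2:**
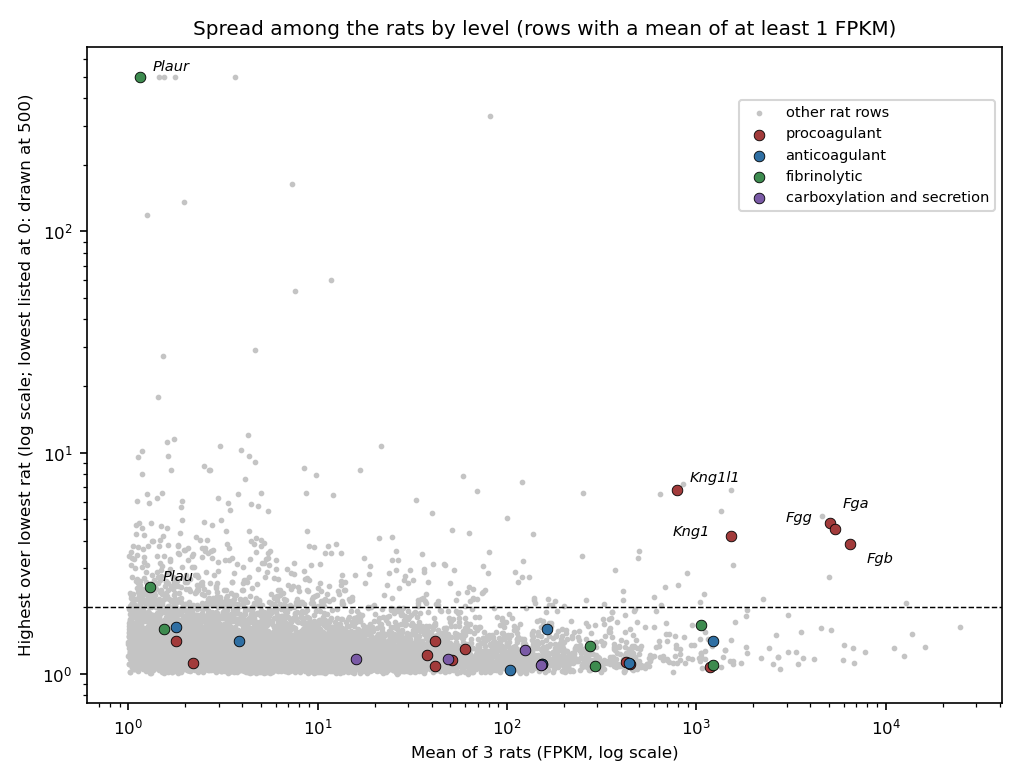
Ratio of the highest to the lowest rat (y axis, log scale) against the mean of the 3 rats in FPKM (x axis, log scale); grey points are the other rat rows whose mean reached 1 FPKM, coloured points are the coagulation and fibrinolysis genes by class, and the dashed line marks a ratio of 2. Rows whose lowest value is listed at 0, Plaur among them, or whose ratio is above 500 are drawn at 500. The 3 fibrinogen and 2 kininogen genes lie above the line at ratios of 3.84 to 6.78, and the other abundant genes of the set lie below it.

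Fibrinogen, the precursor of fibrin, is a hexamer built from pairs of the chains encoded by Fga, Fgb and Fgg. Fgb reached 8594 FPKM in rat 1 and 8667 in rat 3 but 2256.5 in rat 2. In rat 1, rat 2 and rat 3 in turn, Fgg stood at 7627, 1684.5 and 6929, and Fga at 6782, 1451 and 6984. Each chain was thus low in rat 2 and close to equal in rats 1 and 3, which differed by 1.10-fold at most (Fgg). The ratio of highest to lowest was 3.84 for Fgb, 4.53 for Fgg and 4.81 for Fga, and in rat 2 the chains stood at 26.1%, 23.1% and 21.1% of the mean of the other rats. In rats 1 and 3 the chains ranked between 7 and 14 among all rows by FPKM, and in rat 2 at 27 (Fgb), 36 (Fgg) and 44 (Fga); albumin, which has a usable value in rat 3 alone, is not ranked in the others. The 10 hepatocyte markers with 3 values summed to 24625, 25059 and 23747 FPKM in rat 1, rat 2 and rat 3. Ttr, highest in rat 2, was the largest part of that sum, at 9869, 12914 and 10322. The sum therefore cannot show whether the other markers followed the chains. Rat 2 was the lowest library for 4 of the 10, beside 22.6% of all rows. For 2 of the 10, Tat and G6pc, the 2-fold rule was also met, beside 1.93% of all rows. Together the chains made up 4.33%, 1.02% and 4.05% of the library's summed FPKM in rat 1, rat 2 and rat 3.

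The chains kept similar proportions while their sum differed between the rats. Fga gave 29.5%, 26.9% and 30.9% of the fibrinogen FPKM in rat 1, rat 2 and rat 3, Fgb 37.4%, 41.9% and 38.4%, and Fgg 33.2%, 31.2% and 30.7%. Relative to the other rats, Fga was slightly lower in rat 2 than Fgb was. The 3 genes lie together on chromosome 2, from 174727311 to 174775102 on the coordinates of the deposited tables, for which no genome build is stated.

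The fibrinogen genes and Kng1l1 were low in the same library, so the bases before their start sites are shown here, from RefSeq on the GRCr8 build. Each run is the 250 bases before the start, 5′ to 3′ on the gene's strand, and capitals mark the letters CTGGGA on either strand. That motif is the core of a response element for interleukin-6 signalling described in acute-phase genes. Fga has 2 annotated starts, of which the upstream one is shown, and Kng1l1 is an older symbol of the gene that RefSeq now calls Kng1.
Fga, chr2:170671919-170672168, plus strand: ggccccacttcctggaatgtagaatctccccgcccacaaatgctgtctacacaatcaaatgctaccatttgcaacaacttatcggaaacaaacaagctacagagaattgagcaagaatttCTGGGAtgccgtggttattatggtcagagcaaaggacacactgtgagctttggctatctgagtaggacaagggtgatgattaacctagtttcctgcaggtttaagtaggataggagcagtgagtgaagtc
Fgb, chr2:170700876-170701125, minus strand: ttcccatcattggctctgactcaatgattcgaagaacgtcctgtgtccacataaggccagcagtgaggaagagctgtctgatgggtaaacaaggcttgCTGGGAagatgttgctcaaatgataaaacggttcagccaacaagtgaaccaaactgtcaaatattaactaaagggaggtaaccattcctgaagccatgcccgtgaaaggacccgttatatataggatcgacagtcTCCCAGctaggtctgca
Fgg, chr2:170652833-170653082, plus strand: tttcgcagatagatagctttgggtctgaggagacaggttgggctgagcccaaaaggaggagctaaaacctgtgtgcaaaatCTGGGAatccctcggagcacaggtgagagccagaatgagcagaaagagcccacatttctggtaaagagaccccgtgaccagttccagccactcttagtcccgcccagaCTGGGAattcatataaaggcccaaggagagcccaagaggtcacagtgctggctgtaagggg
Kng1l1, chr11:91340149-91340398, minus strand: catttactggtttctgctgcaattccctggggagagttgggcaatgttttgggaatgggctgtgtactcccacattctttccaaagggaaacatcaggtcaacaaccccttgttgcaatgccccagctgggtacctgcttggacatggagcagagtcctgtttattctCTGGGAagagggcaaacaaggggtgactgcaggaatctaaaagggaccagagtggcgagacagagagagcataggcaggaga

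CTGGGA occurred in each of these 4 windows. On the gene's strand it began 130 bases before the start in Fga, 152 in Fgb, 169 and 61 in Fgg and 82 in Kng1l1, and Fgb had another on the opposite strand, 17 bases before the start. It is a short motif: 27.4% of 27457 RefSeq genes held it on either strand of the same window, and so did 12 of the 24 other coagulation genes with a promoter in the table. The longer form CTGGGAA, which overlaps it, was in Fgb, Fgg and Kng1l1 but not in the Fga window, in 4 of the 24 others and in 10.2% of all genes. GTTAAT, part of the site of the hepatocyte factor HNF1, was in Fga and Fgb, in 5 of the 24 others and in 7.13% of all genes. TTGCNNCAA, letters that resemble sites of C/EBP factors, was in Fga and Kng1l1, in 0 of the 24 others and in 1.93% of all genes. CTGGGA was added to the search after these sequences and the levels had been seen. A match is a description of the letters, and binding was not measured. F3, F8, Vwf, Thbd, Serpind1, Serpina10, Plat, Cpb2 and Hrg were not matched in the promoter table, and Kng1 was not used because its deposited name fits more than 1 gene.

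The kininogens, precursors of the kinins and in part cofactors of the contact system, were also low in rat 2. Kng1 reached 1892 FPKM in rat 1 and 2155 in rat 3 but 511 in rat 2, and Kng1l1 reached 1024 and 1187 in those rats but 175 in rat 2. Rat 2 was low for both, with 25.3% and 15.8% of the mean of the other rats. The ratio of highest to lowest was 4.22 for Kng1 and 6.78 for Kng1l1, the largest ratio among the genes of the set with a mean of at least 100 FPKM. Kng1l1 gave 35.1%, 25.5% and 35.5% of the summed kininogen FPKM in rat 1, rat 2 and rat 3. The rat has several kininogen genes with closely related sequences, which can share reads, so the split between them is uncertain. Their names are uncertain too: in RefSeq, Kng1l1 is an older symbol of the gene now called Kng1, while Kng1 is also an older symbol of Kng2 and of Kng2l1. Which gene the Kng1 row measures is therefore not known, nor whether that gene encodes a contact cofactor. The row is counted with the contact and procoagulant genes here by its name only. The rows on chromosome 11 are at 80008751 to 80031601 for Kng1l1 and 80109498 to 80131887 for Kng1 in the deposited tables. Hrg, at 80248577 to 80264179 on the same chromosome, did not share the pattern.

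The other contact factors did not show the low level in rat 2 to that degree. F12, the factor that starts the contact pathway, stood at 416, 461 and 406 FPKM in rat 1, rat 2 and rat 3, highest in rat 2. F11, which factor XII activates, stood at 42.8, 42.9 and 39.6, a ratio of 1.08. Klkb1, plasma prekallikrein, stood at 42.0, 34.7 and 48.8, lowest in rat 2, with a ratio of 1.41. The level of F12 relative to Kng1 was therefore 0.220 in rat 1, 0.188 in rat 3 and 0.901 in rat 2.

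Most proteases of the main cascade were level across the rats. Prothrombin, F2, stood at 1226, 1184 and 1145 FPKM in rat 1, rat 2 and rat 3 (mean 1185 ± 40.5, SD, n = 3), the highest of them. F10, which cuts prothrombin, stood at 426, 474 and 438 (446 ± 24.6), and F9, which with factor VIII activates factor X, at 153, 160.1 and 145 (153 ± 7.63). F7, the protease that tissue factor binds, stood at 50.7, 55.0 and 47.8, and F5, the cofactor of factor X, at 36.5, 35.0 and 42.4. For these 5 genes the highest rat exceeded the lowest by 1.07-fold (F2) to 1.21-fold (F5), and rat 2 was not the lowest for F7, F9 and F10. F2 was lowest in rat 3 as deposited and in rat 2 with scaling. F7, F10 and the anticoagulant gene Proz lie next to each other on chromosome 16, from 81311404 to 81358991 in the deposited tables, and their means were 51.2, 446 and 104 FPKM.

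The initiators and carriers made outside hepatocytes were low. F3, tissue factor, lay below 1 FPKM in each rat, at 0.813, 0.525 and 0.984. F8 stood at 2.33, 2.09 and 2.18 FPKM, and Vwf, its carrier in plasma, at 1.48, 1.79 and 2.08. Both are products of endothelial cells, and in whole liver RNA a low level can come from few such cells or from little RNA per cell, which cannot be told apart here. The 9 endothelial markers with values summed to 99.5, 96.4 and 95.1 FPKM in rat 1, rat 2 and rat 3, with Oit3 listed at 0 in each rat. F9 was 65.4, 76.5 and 66.4 times the level of F8, the cofactor it works with.

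Factor XIII crosslinks fibrin, and its subunits differed widely in level. F13b, the carrier subunit, stood at 53.3, 68.9 and 56.8 FPKM in rat 1, rat 2 and rat 3, highest in rat 2. F13a1, the catalytic subunit, which platelets and macrophages make, was at 0.0303, 0.0636 and 0.0893 FPKM. Of 7 platelet markers with values only Pf4 reached a mean of 1 FPKM (4.08, 4.94 and 7.13), and the 7 summed to 4.59, 5.33 and 7.81 FPKM. The platelet gene Ppbp was listed at 0 in each rat, but so was C3, the complement gene that liver is known to express strongly, so a listed 0 is not read as absence. The macrophage marker Clec4f stood at 61.2, 71.2 and 81.1 FPKM, where F13a1 stayed under 0.1.

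Anticoagulant genes of hepatocytes were abundant. Serpinc1, antithrombin, led with 1179, 1031 and 1456 FPKM in rat 1, rat 2 and rat 3, highest in rat 3 by 1.41-fold over rat 2. Proc, protein C, stood at 429, 469.8 and 419 FPKM, and Serpind1, heparin cofactor II, at 143, 159 and 157. Proz, protein Z, stood at 103, 102 and 106, and had the smallest ratio of highest to lowest among the 34 genes, 1.04. Serpina10, the inhibitor that works with protein Z, stood at 154, 128 and 204, lowest in rat 2 and highest in rat 3. Of the 7 anticoagulant genes with a mean of at least 1 FPKM, 0 differed among the rats by the 2-fold rule, where 6.01% of all rows did, so the count does not set them apart. Their median ratio of highest to lowest was 1.41, against 1.24 over all rows.

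The remaining anticoagulant genes were low or listed at 0. Tfpi, which blocks tissue factor with factor VII, stood at 3.60, 4.67 and 3.31 FPKM, and Thbd, thrombomodulin, at 1.32, 2.14 and 1.92; both are endothelial genes and both were highest in rat 2. Serpina5, the protein C inhibitor, was below 1 FPKM in each rat, at 0.795, 0.484 and 0.0252. Its ratio of 31.5 rests on values below 1 FPKM. Serpina5 is counted with the anticoagulant genes here, although the protein C it inhibits is itself anticoagulant. The class median without Serpina5 alone was not computed. Pros1, protein S, was listed at 0 in the 3 rats; its row is 1 of 831 that lie on sequence not placed on an assembled chromosome, and 0 of those 831 had a value above 0. Its listing therefore says nothing about its expression.

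Ratios between single procoagulant and anticoagulant genes are given for 2 pairs. F2 was 1.04, 1.15 and 0.786 times the level of Serpinc1, the inhibitor of thrombin, in rat 1, rat 2 and rat 3. F10 was 0.995, 1.01 and 1.05 times the level of Proc. The sum of all the genes examined fell from 33796 FPKM in rat 1 and 33592 in rat 3 to 13718 in rat 2, but without the 3 fibrinogen and 2 kininogen genes the other 33 summed to 7877, 7640.0 and 7671.

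**Figure D3:**
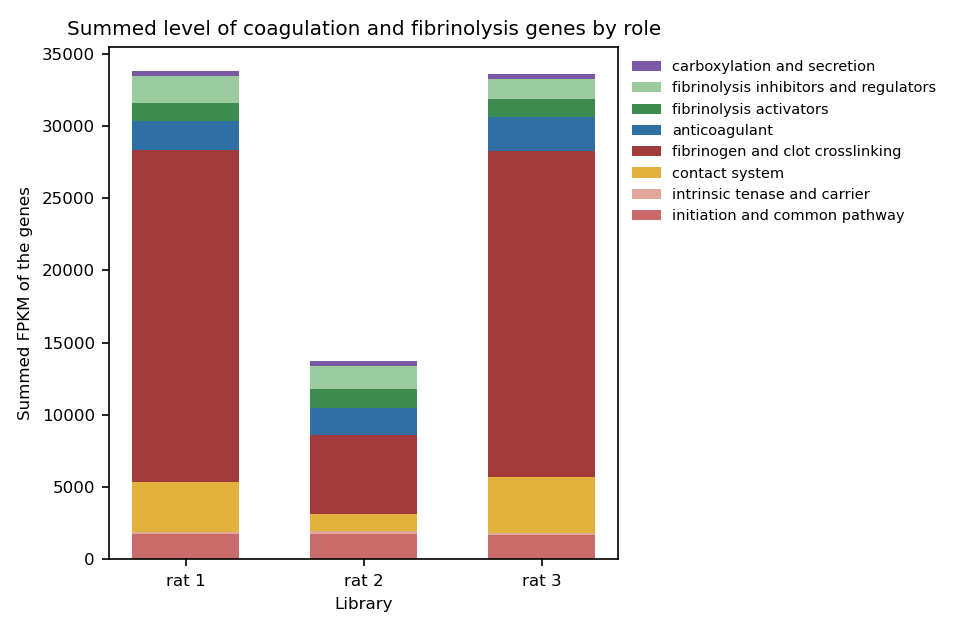
Summed FPKM (y axis, linear from 0) of the genes of each role, stacked, in the 3 rat libraries (x axis). The fibrinogen and crosslinking segment is 23056 in rat 1, 22636 in rat 3 and 5461 in rat 2, and the contact segment 3417, 3836 and 1224 in the same order.

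Fibrinolytic genes split into an abundant hepatocyte part and a low part. Plg, plasminogen, stood at 1187, 1299.9 and 1201 FPKM in rat 1, rat 2 and rat 3, a ratio of 1.09. Of its activators, Plat, tissue plasminogen activator, stood at 2.01, 1.26 and 1.33, and Plau, urokinase, at 0.850, 0.981 and 2.09. Plau was thus highest in rat 3, by 2.46-fold over rat 1, and that ratio was 1.15 without rat 3. Its values in rats 1 and 2 were under 1 FPKM, so its count among the genes that differed rests on rat 3. Plaur, the urokinase receptor, stood at 1.71 and 1.74 in rats 1 and 3 and was listed at 0 in rat 2. A listed 0 can be a failed estimate, so no difference is read from this gene. Macrophages, which make urokinase and its receptor, had their 8 markers with a mean of at least 1 FPKM highest in rat 3 without exception (8 of 8), and the marker list summed to 254, 268 and 365 FPKM in rat 1, rat 2 and rat 3. The neutrophil markers S100a8 and S100a9 stood at 0.807, 4.76 and 4.56 and at 1.43, 2.98 and 5.49, lowest in rat 1. The part of these cells in the Plau values was not tested.

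The inhibitors and regulators of fibrinolysis were all above 200 FPKM. Serpinf2, the plasmin inhibitor alpha-2-antiplasmin, stood at 278, 232 and 309.8 FPKM in rat 1, rat 2 and rat 3, lowest in rat 2. Cpb2, the carboxypeptidase that protects fibrin, stood at 287, 305 and 280.1. Hrg, a plasma protein that binds heparin and plasminogen, stood at 1331, 1044 and 798, highest in rat 1 and lowest in rat 3, with the largest ratio (1.67) among the 27 genes below the 2-fold mark. Plg was 4.27, 5.59 and 3.88 times the level of Serpinf2.

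The genes that prepare clotting factors for secretion showed little spread. Ggcx, the carboxylase that uses vitamin K, stood at 15.8, 14.8 and 17.2 FPKM in rat 1, rat 2 and rat 3, and Vkorc1, the reductase that recycles the vitamin and is the target of warfarin, at 109.7, 123 and 141. Lman1 and Mcfd2 form the receptor that carries factors V and VIII out of the endoplasmic reticulum. Lman1 stood at 46.1, 45.8 and 53.6 FPKM and Mcfd2 at 152, 156 and 143. The highest rat exceeded the lowest by 1.09-fold (Mcfd2) to 1.28-fold (Vkorc1). Ggcx had the lowest level of the 4 and Mcfd2 the highest.

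Rat 2 also had the lowest listed values for genes of the acute-phase response outside the set. Of 16 with a mean of at least 1 FPKM, rat 2 was the lowest in each (16 of 16) as deposited, against 22.6% of all rows and 16 of the 34 coagulation genes. With scaling it was the lowest in 16 of 16 again and in 17 of the 34 coagulation genes. The share over all rows was not computed with scaling. By the 2-fold rule 8 of the 16 differed, beside 6.01% of all rows. Lcn2, at 7.82, 0 and 3.08 FPKM in rat 1, rat 2 and rat 3, is counted among the 8 and the 16. Its listed 0 can be a failed estimate, so it is not read as low in rat 2. Serpina3n, an antiprotease, stood at 4309, 1555 and 8047 FPKM in rat 1, rat 2 and rat 3, and hemopexin (Hpx), which binds haem, at 5657, 2531 and 6959. Lbp, which binds bacterial lipopolysaccharide, stood at 172, 62.7 and 156. Not all acute-phase genes were low in rat 2 to that degree: Crp stood at 3308, 2649.7 and 3233 and Saa4 at 1537, 1206 and 1521. Among genes of the signal itself, Stat3 stood at 80.3, 48.0 and 62.8 FPKM, and Il6st, the shared receptor chain of interleukin-6 cytokines, at 35.0, 29.3 and 29.5. This list was put together with the spread of such genes between these rats known, so its direction is no independent evidence, and its part in the fibrinogen values was not tested.

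**Figure D4:**
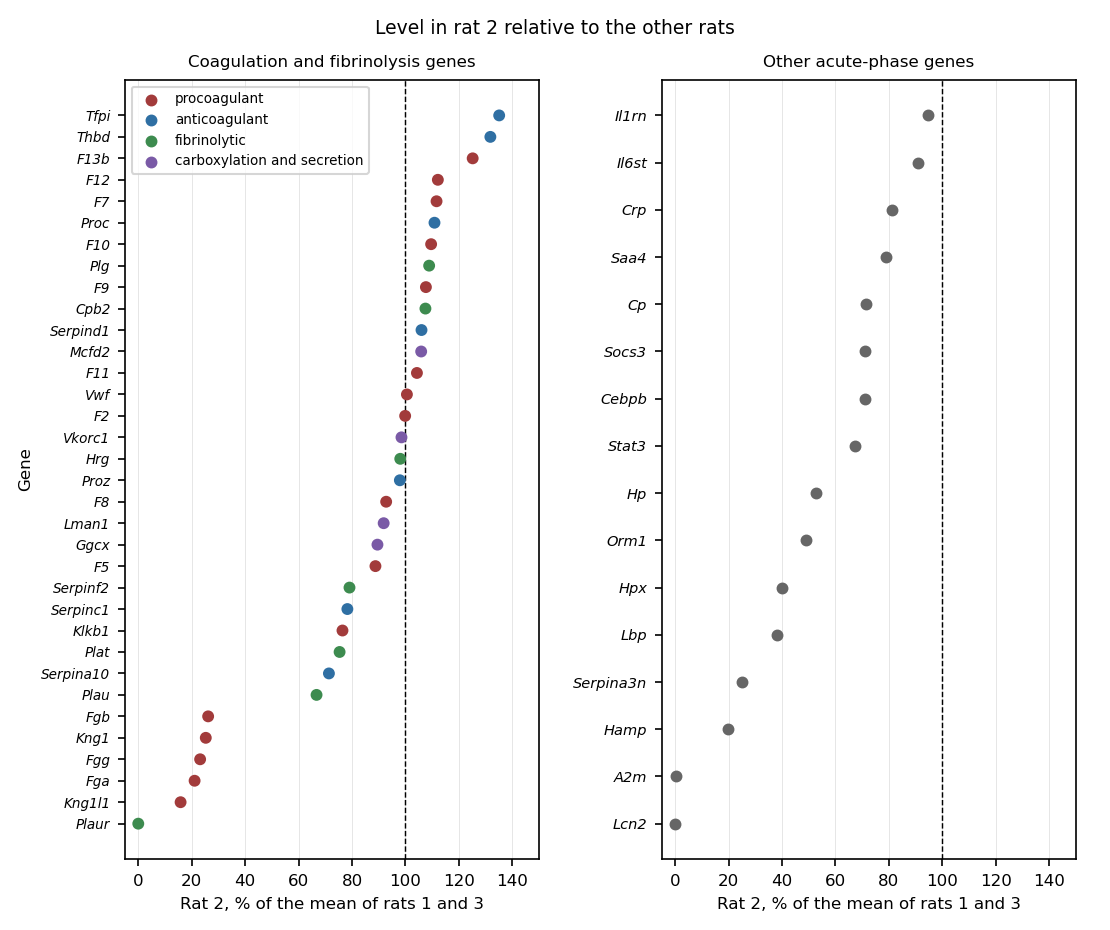
Level in rat 2 as a percentage of the mean of rats 1 and 3 (x axis) for the coagulation and fibrinolysis genes with a mean of at least 1 FPKM (left, coloured by class) and for other acute-phase genes (right); each point is 1 gene and the dashed line marks 100%. The fibrinogen chains and kininogens lie between 15.8% and 26.1%, apart from the other genes of the left panel except Plaur, which is listed at 0 in rat 2. Lcn2 in the right panel is also listed at 0 in rat 2.

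Of 31 further genes of the pathway, 27 had rows in the rat tables and 21 a mean of at least 1 FPKM. Of the 21, 5 differed among the rats, beside 6.01% of all rows, and 3 did so with rat 2 lowest, beside 1.93%. The highest were Apoh, a plasma glycoprotein that binds phospholipid, at 3446, 3597 and 3239 FPKM in rat 1, rat 2 and rat 3, and Fgl1, a fibrinogen-like protein of hepatocytes, at 651, 404 and 1001. Serping1, the inhibitor of factor XII and kallikrein, followed at 503, 387 and 489, then C4bpb, which binds protein S, at 371, 244 and 429. Asgr1, a subunit of the receptor that clears glycoproteins, stood at 327, 318 and 335, and the protease hepsin (Hpn) at 208, 235 and 228. Fgl1, Serping1, C4bpb and Asgr1 were lowest in rat 2, and Apoh and Hpn were not.

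The widest spread among these further genes was that of A2m, a broad protease inhibitor, at 191, 0.571 and 52.3 FPKM in rat 1, rat 2 and rat 3. Procr, the endothelial protein C receptor, stood at 0.918, 3.80 and 2.14, highest in rat 2. Gas6, a vitamin K-dependent relative of protein S, stood at 41.1, 17.1 and 51.0. A2m and Gas6 were lowest in rat 2.

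Apoh and S100a10, a partner of the plasminogen-binding annexin Anxa2, were the 2 genes of the pathway with rows in the naked mole rat tables. APOH stood at 57.9, 34.7 and 51.7 FPKM in the 3 naked mole rat libraries, on a row of 2368397 bp where the rat row spans 14126 bp. S100A10 stood at 3.78, 2.77 and 5.41 FPKM on a row of 366 bp, against 8648 bp in rat, where it stood at 10.6, 10.2 and 12.4. Because the rows differ so much in extent, no ratio between the species is given.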

How the data were processed

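Polyadenylated RNA from liver was measured in 3 rat and 3 naked mole rat libraries. The deposited values are FPKM in a Cufflinks gene table, per the file headers; the submitters' processing notes name Picard 1.137, Cufflinks 2.1.1, TopHat2 2.0.9 and Bowtie2 2.1.0. The genome build is not given in the sources used here. A value with the status HIDATA (albumin in rat 1 and rat 2) was treated as missing; each value of the genes reported has the status OK. Of their 114 values 69 lay outside their own deposited confidence bounds, and no rats were compared by those bounds. For Fga, Fgb, Fgg, Kng1 and Kng1l1, 0 of the 3 values lay inside, and likewise for F2, F10, F12, Plg, Proc and Serpinc1. For Plau and Plaur the 3 values lay inside.

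FPKM was used as deposited, with no pseudocount, in Python 3.11.15 (pandas 2.3.3). No p-value was computed, because no listed gene was in both species and the rats are 1 group. The counting and scaling steps were checked on simulated data. The genes and lists were chosen with earlier results of these data known. Each listed gene is reported; of the further pathway genes, the 6 of highest mean and the 4 of widest spread were to be named, and 1 of the latter is not reported here. Genes of the marker and acute-phase lists were picked as examples after their values were seen. Promoters are from RefSeq (GRCr8), matched by symbol for 28 of the 38 genes. Alternatives were the fold, the filter, scaling by the median ratio (factors 0.957, 1.04 and 1.01), a pseudocount, and leaving out each rat.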

Additional observations from a re-analysis of the deposited data

How the results depend on the processing

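Of 44 alternative values for the counts and medians, 39 stayed within a set limit. The limit was 1.5 times the count or, for class medians, the SD of that median between libraries. For the log2 ratios it was the median SD of a single row between the rats, 0.165 over all rows. That limit is wider than the shifts of the log2 medians given below, 1 of which changed sign, so it says little about them. The count of genes that differed among the rats was 11 with a fold of 1.5, beside 18.9% of all rows. With a rat left out, but the filter still on the mean of all 3 rats, the count ran from 1 to 7, the lowest without rat 2. It was 7 with scaling by the median ratio (5.89% of rows), 6 with a fold of 3 (1.91%) and 5 of 27 with a mean of at least 10 FPKM (3.92%). Over rows above 0 in every rat with no filter on the mean it was 8 of 36, beside 17.2% of rows, much nearer the share of all rows. In alternatives chosen after seeing the data it was 5 of 20 with a mean of at least 100 FPKM (6.94%) and 6 of 33 over rows above 0 with a mean of at least 1 FPKM (5.95%). With genes under 1 FPKM left out, the median was 290.0 FPKM for procoagulant and 153 for anticoagulant genes; without Pros1, an alternative chosen after seeing the data, the latter was 128. Scaling moved the median log2 ratio of rat 1 over rat 2 from 0.01 to 0.14 for the coagulation genes and from -0.13 to -0.0040 for all rows. The same scaling turned the median of rat 1 over rat 3 from -0.04 to 0.03, and the 7 genes that differed were the same. The ratio of Plaur, listed at 0 in rat 2, has no finite value. Depth limits the genes near or under 1 FPKM, such as Plaur and Serpina5, most. No paired analysis was possible because no listed gene had a row in both species; for the same reason the planned fit between the species and its alternatives were not run.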
